A study of Mus musculus with 2 samples.

Results

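Type 17 lymphocytes of the dorsal meninges were described here from droplet single-cell RNA sequencing of 1 Sham library and 1 TBI library. The Sham library held cells of 5 male C57BL/6J mice (C57BL/6 in the labels) that were pooled 1 week after a sham procedure, and the TBI library held cells of 5 such mice pooled 1 week after a mild closed-skull injury. The mice were given as 10 weeks old, or as 10 to 12 weeks in the age label, and carried no transgene that the labels name. Live cells were sorted as DAPI- from digested dorsal meninges and sequenced from the 3′ end with unique molecular identifiers (UMIs), each of which stands for 1 captured transcript. Because each condition was 1 pooled library, no test of TBI against Sham was possible, and intervals given between the libraries cover counting error only.

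A cell was taken as a type 17 lymphocyte when it carried UMIs of at least 2 of 8 genes (Il23r, Il17re, Tcrg-V6, Trdc, Blk, Actn2, Kcnk1 and Il17a) and none of 5 genes of other lineages (Cd79a of B cells, Cd8b1 of CD8 T cells, Il1rl1 of group 2 innate lymphoid cells, Ncr1 of NK cells and C1qa of macrophages). Of 5816 cells that passed the filters on genes, mitochondrial and hemoglobin UMIs, 63 met this rule. The Sham library gave 26 of 2043 cells and the TBI library 37 of 3773 cells. These cells held 107784 UMIs in Sham, with a median of 3833.5 per cell, and 158287 UMIs in TBI, with a median of 3909. All filtered cells together held 7866611 and 13940740 UMIs. The libraries shared 14 cell barcodes after filtering, of which 2 belonged to a type 17 lymphocyte in 1 of the libraries.

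Gamma-delta T cells carry a T cell receptor made of a gamma and a delta chain and recognise targets without the classical peptide presentation that alpha-beta T cells need. A subset of them is programmed in the fetal thymus to make interleukin 17 and settles in barrier tissues, the meninges among them, where it is kept by interleukin 7 and answers interleukin 1 and interleukin 23 without prior priming. The semi-invariant receptor that pairs the gamma segment Tcrg-V6 with the delta segment Trdv4 marks the innate-like cells within this type 17 subset.

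The cells near the threshold of the rule were unlike each other. Among the 63 cells, 16 carried 2 of the 8 genes, 17 carried 3, 4 carried 4, 7 carried 5, 14 carried 6 and 5 carried 7. Just outside the rule lay 153 cells with 1 of the genes, of which 88 carried Kcnk1 alone and 18 carried Trdc alone. A CD3 UMI was present in 0 of the 88 Kcnk1-only cells and in 16 of the 18 Trdc-only cells, while 6 of the 16 cells just inside the rule carried one. The exclusion genes removed 2 Sham and 4 TBI cells that otherwise met the rule.

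The receptor genes divided the 63 cells. At least 1 UMI of a gamma or delta receptor gene was found in 55 cells, 23 in Sham and 32 in TBI, and these are called gamma-delta cells below as a working name. Of the 55, 49 carried a delta gene UMI, 4 a gamma variable segment without one, and 2 gamma joining or constant genes only. Since Trdc and Tcrg-V6 belong to the rule, this number describes the choice and supports no label by itself. CD3 genes, which encode the invariant chains that every surface T cell receptor needs and which the rule did not use, had UMIs in 49 of the 55 gamma-delta cells. An alpha-beta constant gene had UMIs in 36 of the 63 cells, mostly Trbc1 or Trbc2 (33 cells) and less often Trac (8 cells). One Sham cell had no gamma-delta UMI but 21 CD3 UMIs and 2 Trac UMIs beside Il23r, Il17re and Actn2.

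The remaining 7 cells, 2 in Sham and 5 in TBI, went against the label. They had 0 UMIs of Ptprc (the pan-leukocyte protein CD45), of Cd3d, Cd3e and Cd3g and of every receptor gene, and each of them met the rule through Il17re and Kcnk1 alone. Of these, 4 cells carried between 1081 and 8680 UMIs of Ttr (transthyretin) and 48 to 843 UMIs of Enpp2 (autotaxin), genes that choroid plexus epithelium expresses strongly. Another 2 TBI cells carried 11 and 8 UMIs of Epcam, an epithelial adhesion molecule, with keratin genes beside it, and 1 TBI cell of 1849 UMIs, 18.0% of them mitochondrial, carried neither set. These 7 cells held 26.4% of the UMIs of the rule's cells in Sham and 23.1% in TBI, so results are given for the gamma-delta cells as well as for all 63. In the TBI library 1 gamma-delta cell, with 17433 UMIs the deepest of its group, also carried 2460 Ttr and 273 Enpp2 UMIs next to 20 CD3 UMIs, 13 Trdv4 UMIs and 5 Cd163l1 UMIs. Results that this cell changes are given without it too.

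**Figure D1:**
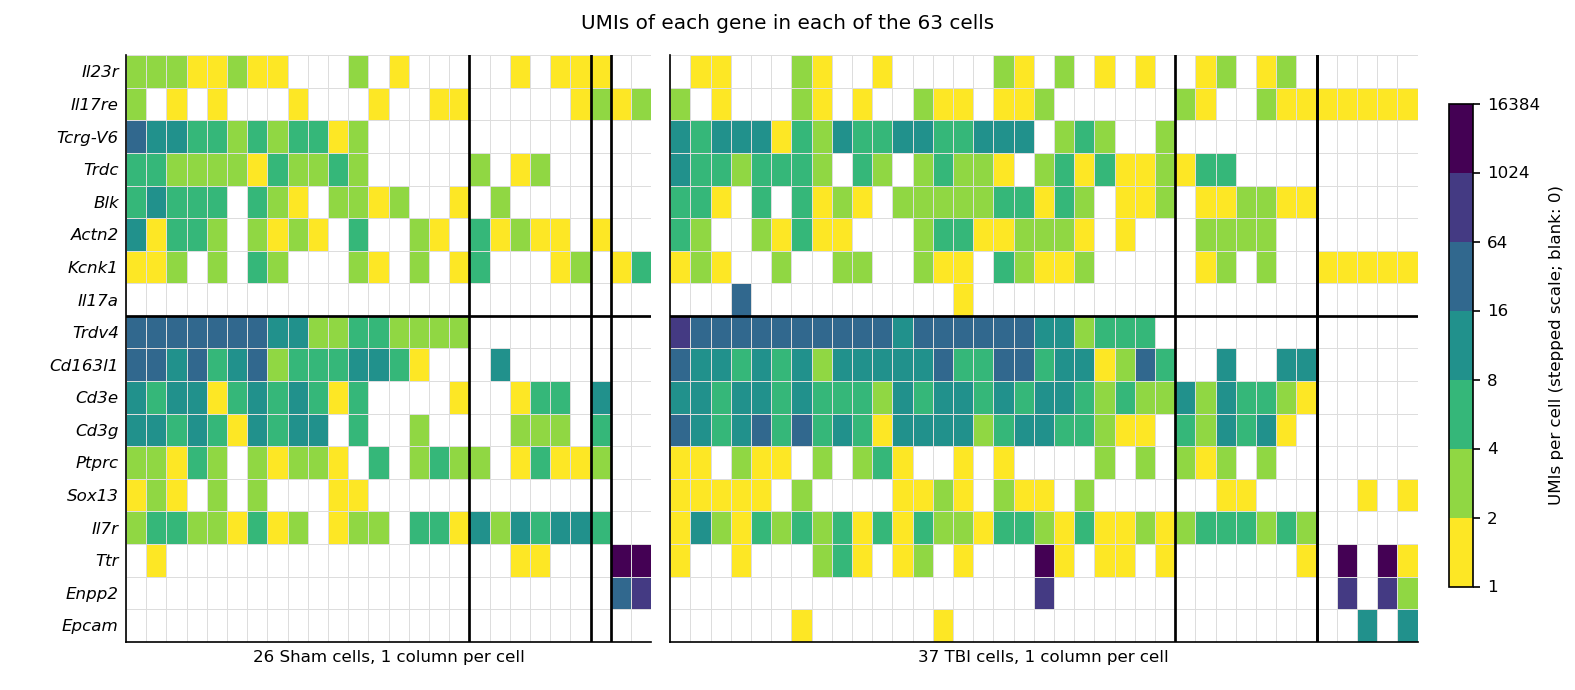
UMIs of 18 genes (rows) in each of the 63 cells (columns), Sham left and TBI right, on a stepped colour scale with blank for 0; the 8 genes above the horizontal line chose the cells. Vertical lines separate, from left to right, cells with Tcrg-V6 or Trdv4, other gamma-delta cells, the Sham cell with CD3 and alpha-beta UMIs, and the cells without any Ptprc, CD3 or receptor UMI, where Ttr, Enpp2 or Epcam appear in 6 of 7 cells.

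Clustering of all 5816 cells without the 13 rule genes placed 45 of the 63 cells in a single cluster of 435 cells, led by Cd3e, Cd3d and Cd3g. A further 10 cells, 7 from Sham and 3 from TBI, fell in a cluster of 275 cells whose leading genes included Rnf128 and Gata3, and 5 fell in a cluster led by Ttr and Enpp2. The 6 gamma-delta cells without a CD3 UMI were all from Sham, and 5 of them lay in the Rnf128 and Gata3 cluster. The 7 Sham gamma-delta cells of that cluster were shallow, with a median of 909 UMIs against 3989.5 for the Sham gamma-delta cells in the CD3 cluster. Of the 6 cells without a CD3 UMI, 3 held 4000 or more UMIs. The part of depth in the missing CD3 UMIs was not tested.

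The 63 cells of the rule made up 1.27% of the filtered Sham cells (exact binomial 95% interval 0.833% to 1.86%) and 0.981% of the filtered TBI cells (0.691% to 1.35%). The difference of -0.292 percentage points had an interval from -0.936 to 0.254, so no change in their share was detectable at this depth. Without the 7 cells that went against the label the shares were 1.17% and 0.848%, and the difference of -0.327 points had an interval from -0.945 to 0.191. The interval includes 0 and reaches a fall of most of the Sham share. Gamma-delta cells alone were 1.13% of the Sham cells (0.715% to 1.68%) and 0.848% of the TBI cells (0.581% to 1.20%). Shares rest on the other cells that were captured as well, and B cells were 21.2% of the Sham library and 10.7% of the TBI library. Among cells without Col1a1 or Col1a2 UMIs the difference of the rule's cells was -0.0348 points (-0.777 to 0.653). Among cells with a Ptprc UMI it was -0.754 points (-1.87 to 0.217).

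The receptor segments Tcrg-V6 and Trdv4 were found in largely the same cells. Tcrg-V6 UMIs were present in 34 cells and Trdv4 UMIs in 41 cells, and 33 cells carried both, which left 1 cell with Tcrg-V6 alone and 8 with Trdv4 alone. The 3′ ends of the variable segments are printed here because these are the stretches that join the rest of the receptor, with the codon of the conserved cysteine in capitals. Both come from the last exon of the segment on the plus strand of GRCm38, Tcrg-V6 at chr13:19190840-19190929 and Trdv4 at chr14:54075426-54075515.
Tcrg-V6: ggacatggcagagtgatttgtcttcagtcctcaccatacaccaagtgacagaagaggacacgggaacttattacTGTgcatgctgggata
Trdv4: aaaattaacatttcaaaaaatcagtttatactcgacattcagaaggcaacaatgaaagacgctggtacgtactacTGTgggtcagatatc
Neither annotated segment shared a window of 50 bases with another of the gamma or delta segments examined, so their counts could be told apart. The gamma constant genes were less separable, as 34.2% of the windows of Tcrg-C1 also occurred in another constant gene.

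Trdv4 reached 46 UMIs in a single Sham cell and 75 in a single TBI cell, with medians of 3 and 16 over the 23 and 32 gamma-delta cells. Summed over these cells and scaled to a total of 1000000 UMIs (CPM), it gave 2855 CPM in Sham and 4286 in TBI. Tcrg-V6 gave 917 and 1109 CPM, from 12 of 23 and 22 of 32 cells. Neither segment had a UMI in any of the 56 CD4 or 73 CD8 T cells, and in B cells the share with a Trdv4 UMI was 0% in Sham and 0.248% in TBI at median depths of 3172.5 and 2729 UMIs, against 73.9% and 75.0% of gamma-delta cells at medians of 3986 and 3573.5. Group 2 innate lymphoid cells were an exception, since 19.3% of them in Sham and 10.3% in TBI carried a Trdv4 UMI 26.3% and 27.9% a Tcrg-C1 UMI and 31.6% and 41.2% a Tcrg-C4 UMI, at 57.3 and 39.8 CPM for Trdv4. A gamma constant gene alone therefore did not set gamma-delta cells apart from these cells, and 10 of the 55 lay in the Rnf128 and Gata3 cluster. Of the other gamma segments, Tcrg-V5 had UMIs in 15 of the 63 cells, 8 of which also carried Tcrg-V6, while Tcrg-V4 had UMIs in 1 cell.

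The gamma-delta cells with Tcrg-V6 or Trdv4 (42 cells) and those without either (13 cells) differed in other genes as well, which is given as a description because the genes were picked after their values were seen. Cd163l1, a scavenger receptor family gene also known as Scart1, had UMIs in 40 of the 42 cells and in 4 of the 13, and in all 34 cells with Tcrg-V6. Its relative 5830411N06Rik, also known as Scart2, had the opposite pattern, with 0 UMIs in the 42 cells and 16 UMIs in 5 of the 13. Pdcd1, which encodes the inhibitory receptor PD-1, had UMIs in 28 of 42 and 4 of 13 cells, and Sox13, a transcription factor of gamma-delta T cell development, in 21 of 42 and 2 of 13. The residency-linked chemokine receptor Cxcr6 stood at 1948 CPM in the 42 cells and 822 in the 13, and Maf, a driver of type 17 programming, at 556 and 216. In the other direction, Il7r stood at 837 and 1601 CPM, Il18r1 at 373 and 714, and Ly6a at 91.5 and 584. The 2 sets also lay differently over the clusters. In the Rnf128 and Gata3 cluster, 5 of 7 Sham gamma-delta cells carried Trdv4, and 0 of 3 TBI cells carried either segment. Group 2 innate lymphoid cells were themselves high in Il7r (955 and 1090 CPM) and Ly6a (1227 and 1364 CPM). A single Sham cell held 7 of the 27 Ly6a UMIs of the 13. The part of the clusters in these values was not tested. Depth was similar, with medians of 3517.5 and 4102 UMIs per cell. Il23r and Il17re had UMIs in cells of both sets.

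**Figure D2:**
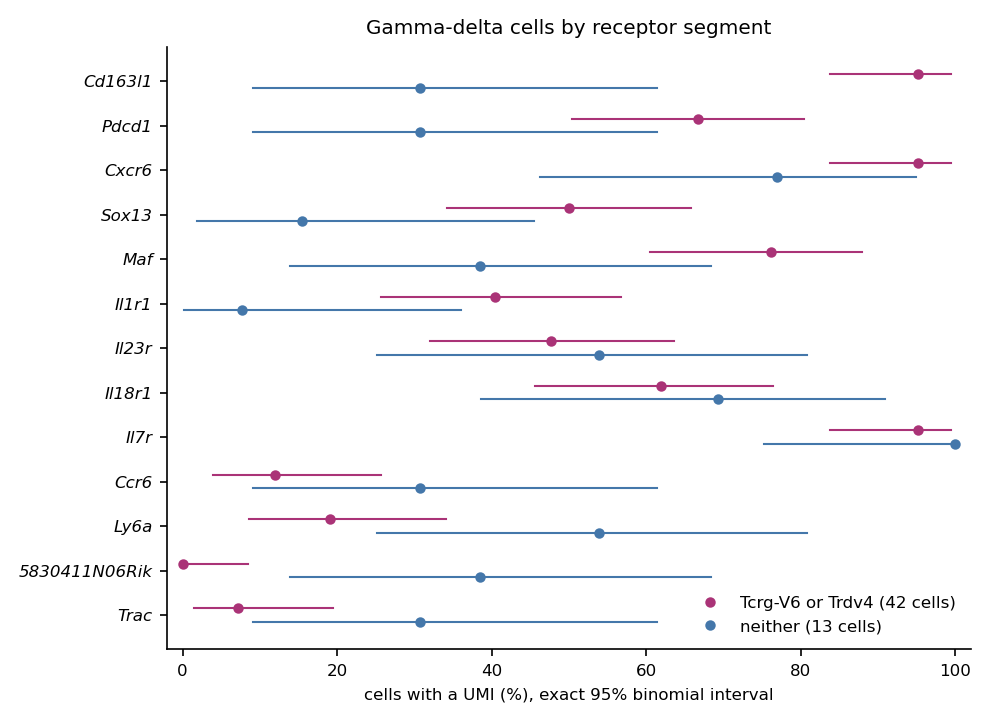
Share of gamma-delta cells with at least 1 UMI of each of 13 genes, in percent with exact 95% binomial intervals, for the 42 cells with Tcrg-V6 or Trdv4 and the 13 cells with neither. Cd163l1, Pdcd1, Sox13 and Maf lie further right in the 42 cells and 5830411N06Rik, Ly6a and Trac in the 13, and most intervals of the 13 cells are wide.

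Of the 8 genes that chose the cells, which are given here as values only, Blk, a Src-family kinase that gamma-delta type 17 cells share with B cells, had UMIs in 14 of 23 Sham and 27 of 32 TBI gamma-delta cells. It also had UMIs in 59.4% of Sham and 46.0% of TBI B cells. Il23r, the receptor subunit through which interleukin 23 acts, had UMIs in 13 and 14 gamma-delta cells, Il17re in 8 and 16, Actn2 (an actinin) in 17 and 21, and Kcnk1 (a potassium channel) in 13 and 17. Il23r had 0 UMIs in every CD4 T, CD8 T, group 2 innate lymphoid and B cell of both libraries. Il17a itself, the signature cytokine, had 0 UMIs in the 23 Sham cells, which by counting error allows a share of up to 13.04% (3 of 23) of cells with a UMI and sets no limit on cells expressing the gene, and 29 UMIs in 2 of the 32 TBI cells. One of these cells held 28 of the 29, and it also held 10 Tcrg-V6 and 34 Trdv4 UMIs and 20 of the 25 Nr4a1 UMIs of the TBI gamma-delta cells. Nr4a1 is an immediate early gene of receptor signalling.

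The promoters of Il23r and Il17a are printed because these genes encode the receptor and the cytokine of the type 17 programme. They run from 250 bases before to 50 bases after the start site in the RefSeq promoter table on GRCm38.p6, and capitals mark AGGTCA, a core half-site that many nuclear receptors recognise, or its reverse complement TGACCT. The Il23r promoter lies on the minus strand at chr6:67491806-67492105 and that of Il17a on the plus strand at chr1:20730655-20730954.
Il23r: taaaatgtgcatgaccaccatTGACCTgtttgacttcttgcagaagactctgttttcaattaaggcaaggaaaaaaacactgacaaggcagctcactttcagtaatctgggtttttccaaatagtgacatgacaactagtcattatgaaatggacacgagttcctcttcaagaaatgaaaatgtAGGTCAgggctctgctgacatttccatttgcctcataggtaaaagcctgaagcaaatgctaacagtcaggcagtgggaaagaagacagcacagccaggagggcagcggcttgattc
Il17a: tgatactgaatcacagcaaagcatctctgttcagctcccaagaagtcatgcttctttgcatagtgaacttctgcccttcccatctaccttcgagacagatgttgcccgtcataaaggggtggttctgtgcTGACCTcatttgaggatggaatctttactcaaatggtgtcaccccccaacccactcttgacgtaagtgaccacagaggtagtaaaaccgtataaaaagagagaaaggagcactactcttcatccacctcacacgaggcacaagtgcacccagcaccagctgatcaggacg
The Il23r window held 2 matches and the Il17a window 1. Of the 8 rule genes and 15 type 17 transcription factor genes, 15 were found in the table and 6 of these held a match (Il23r, Il17a, Actn2, Sox4, Nfil3 and Hif1a), while 16.3% of all 32851 promoters did. A match is a stretch of letters and no evidence of binding.

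To ask how these cells differed from the other lymphocytes of the same libraries, their UMIs were summed per library and compared with the sums of CD4 T cells (56 cells), CD8 T cells (73 cells) and group 2 innate lymphoid cells (125 cells) in edgeR's quasi-likelihood test with library as a block. The contrast set the gamma-delta cells against the mean of the 3 populations, left out every gene that chose a population and every receptor gene, and called a gene at a Benjamini-Hochberg adjusted p under 0.05. The p-values rest only on how the population differences varied between these 2 pooled libraries, with the spread shared over populations and genes. They do not measure spread between mice. Of 3349 genes tested in the gamma-delta cells, 173 were higher (5.17%) and 119 lower (3.55%). Against each of the 3 populations alone, 44 of the 173 and 11 of the 119 were called, so most calls rested on 1 or 2 populations or on the mean. With all 63 cells, 290 of 3360 genes were higher (8.63%) and 213 lower (6.34%), and the 15 leading higher genes then were Enpp2, Ttr, Clu, Mt3, Chchd10, Ptgds and Ecrg4, the receptor segment Trdv4, and Cd163l1, Tmem176a, Tmem176b, Serpinb1a, Ckb, Ifngr1 and Ldhb. Of these, Enpp2 had 1527 UMIs in the 63 cells, in 2 Sham and 4 TBI cells. The genes named below were called in the gamma-delta cells, and each call held without the Ttr-rich TBI cell unless stated. Differences given for a library alone are log2 CPM differences with a small count added, and do not come from the fit. Both can therefore fall on the same side of the fitted difference. DESeq2's Wald test on the same sums did not call Sox13, Rora, Klf2, Il12rb1, Itgae, Rgs1, Lgals3, Tnfrsf25, Tigit, Ubash3a, Stmn1, Tubb5, Tyms, Nr4a1, Hsp90aa1 or Rnf213. With scaling by library totals alone, Klf2, Tigit, Tubb5 and Tyms were not called. Of the genes named from lists below, Maf, Ikzf3, Sox13, Ramp1, Ifngr1, Il18r1, Cxcr6, Zap70 and Klrb1b were higher and Ly6a, Itga4 and Nfkbia lower against each population alone, Itgae and Il12rb1 were called against none alone, and the other called ones outside the 15 leading higher genes were called against 1 or 2. Cd163l1, Sox13 and Itgae had 0 UMIs in the other sums and passed the filter on low counts through the gamma-delta sums alone, so their calls followed in part from the filter. Cd28, Lgals3, Klrd1, Tigit and Tyms passed it through the other sums alone.

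The first of the leading higher genes was Cd163l1. It had 154 UMIs in the Sham and 268 in the TBI gamma-delta cells and 0 in all 6 sums of the other populations, which makes it at least 759-fold higher against a floor of 3 UMIs over those sums together. Its call in edgeR followed in part from the filter, as given above, and DESeq2's Wald test did not call it. The gene spans chr7:140218267-140231145 on the plus strand of GRCm38. Aqp3, a water and glycerol channel, had 25 and 39 UMIs against 4 in all other sums, a difference of 6.08 ± 0.46 (log2 ± SE, adjusted p = 4.28e-08), or 4.88 in Sham alone and 6.06 in TBI alone. Serpinb1a, which encodes a protease inhibitor, was higher by 5.26 ± 0.33 on the log2 scale (adjusted p = 3.65e-09), at 698 and 558 CPM in gamma-delta cells and no more than 59.7 in any other sum.

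The paired membrane genes Tmem176a and Tmem176b, which are high in type 17 lymphocytes, were also higher. In gamma-delta cells, Tmem176a gave 1240 CPM (Sham) and 1125 CPM (TBI). The other populations ranged from 5.08 to 314 CPM for this gene, with group 2 innate lymphoid cells nearest, and the difference was 4.43 ± 0.25 (adjusted p = 8.11e-10). For Ifngr1, a chain of the interferon gamma receptor, the gamma-delta cells had 2171 and 1782 CPM and the others 129 to 413. Its difference was 2.74 ± 0.19 (adjusted p = 1.84e-08), and neither library overlapped the other populations. Others of the 15 leading higher genes were Ckb (creatine kinase B), Jaml (a junctional adhesion molecule of epithelial lymphocytes), Ly6g5b, Selenop (selenoprotein P), Il18r1 (an interleukin 18 receptor chain), S100a6, Capg and Rln3 (relaxin 3), with log2 differences from 1.95 to 4.71. Jaml differed by 3.16 in Sham alone and 4.68 in TBI alone, and Rln3 by 3.47 and 4.94. Rln3 came from 20 of the 55 gamma-delta cells, and no single cell held more than 15.1% of the UMIs of any of the 15.

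The lower genes were led by Ly6a, which encodes Sca-1, at 220 and 197 CPM in gamma-delta cells and 650 to 1364 in the others (log2 difference -2.42 ± 0.25, adjusted p = 2.83e-06). Cd28, the main costimulatory receptor of T cells, had 0 UMIs in gamma-delta cells and 142 in the other sums, at least 8.77-fold lower. Group 2 innate lymphoid cells held 6 and 1 of the 142, and against them alone Cd28 was not called (adjusted p = 0.183). Lck, a kinase of T cell receptor signalling, had 9 and 4 UMIs, 116 and 32.8 CPM. Its difference was -3.34 against CD4 T cells and -3.88 against CD8 T cells but 0.09 against group 2 innate lymphoid cells, and the pooled difference was -1.79 in Sham alone and -3.30 in TBI alone. Other lower genes were the phosphatase Inpp4b (-3.22 ± 0.41), Tspan13 (-2.72 ± 0.39), Nfkbia (-2.26 ± 0.35), Fyb, Tnfrsf18 (GITR), Itgb1 and Gimap6. Fyb (adjusted p = 0.111), Itgb1 (0.443) and Gimap6 (0.106) were not called against group 2 innate lymphoid cells alone, nor Tnfrsf18 against CD8 T cells alone (0.0708). Inpp4b differed by -4.71 in Sham and -2.55 in TBI, from 1 and 6 UMIs, and Nfkbia by -3.08 and -1.87. Ifi27l2a, an interferon-induced gene, had 1 UMI in gamma-delta cells and 827 in the others, a ratio of 0.00653 in CPM (counting interval 0.000165 to 0.0365). CD4 T cells held 409 and 151 of the 827 and group 2 innate lymphoid cells 26 and 1, and against the latter alone the gene was not called (adjusted p = 0.187). Ctla2a had 3 UMIs and 290 in the others, a ratio of 0.0558 (0.0114 to 0.165). All 3 Ctla2a UMIs were in Sham, and the difference was -2.82 there and -6.11 in TBI, where it rests on 0 UMIs.

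**Figure D3:**
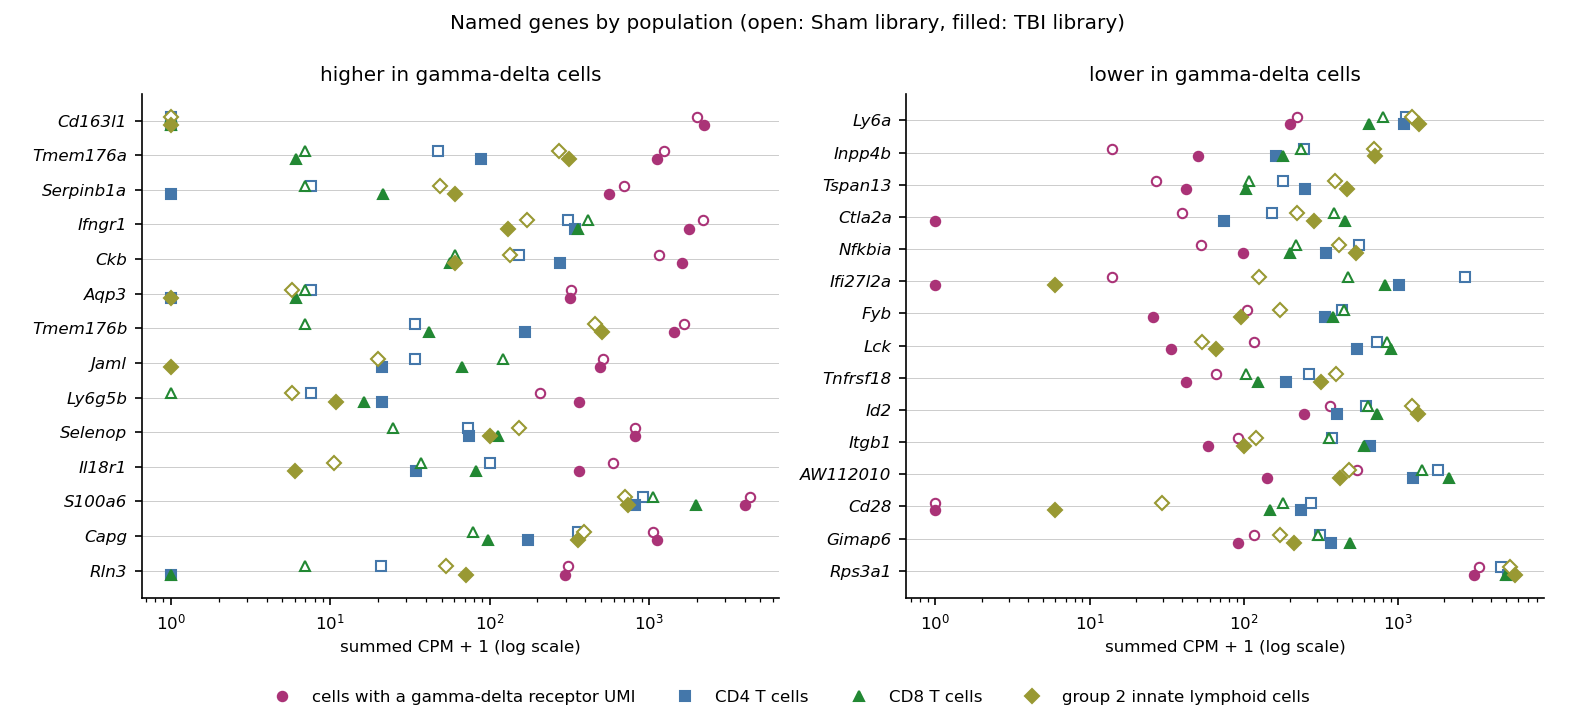
Summed CPM plus 1 (log scale) of 14 of the 15 leading higher genes (left) and 15 leading lower genes (right) in gamma-delta cells and 3 other populations; open symbols are the Sham library and filled symbols the TBI library. Both gamma-delta sums of Cd163l1 and Aqp3 lie far to the right of every other sum, and both sums of Ly6a and Inpp4b lie to the left of every other sum.

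Among transcription factors linked to the type 17 fate, 11 of 15 were tested. Of these, 6 were higher and 1 lower, beside 5.17% and 3.55% of all genes tested. The median log2 difference of the list was 1.37, beside 0.02 over all genes tested. The higher genes included Maf (2.46 ± 0.26, adjusted p = 2.79e-06), Ikzf3 (1.54), Rora (1.37), Zbtb16 (PLZF, 4.95 ± 0.99, adjusted p = 0.00398, or 3.98 in Sham and 4.42 in TBI) and Sox13, which had 10 and 22 UMIs against 0 in the other sums and was at least 57.6-fold higher. Without Sox13, 5 of 10 were higher and the median was 0.82. Id2, which innate lymphoid cells need and where group 2 innate lymphoid cells were highest, differed by -1.49 ± 0.25 and was the lower one. Of 5 tested transcription factors of other lymphocyte fates, 0 were higher and Klf2, a factor of recirculating cells, was lower (-1.85 ± 0.54, adjusted p = 0.0398). All 10 Klf2 UMIs lay in 1 Sham cell, and with DESeq2 or with scaling by library totals 0 of the 5 were called.

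Of the cytokine and neuropeptide receptors, 16 of 24 were tested, with a median log2 difference of 1.11. Beside 5.17% higher and 3.55% lower over all genes tested, 8 of the 16 were higher and 0 lower. These included Ramp1 (2.68 ± 0.27, adjusted p = 1.93e-06), a subunit of the receptor for the neuropeptide CGRP, which had UMIs in 17 of 23 Sham and 27 of 32 TBI gamma-delta cells and differed by 1.90 in Sham and 3.20 in TBI. Il1r1, the interleukin 1 receptor, had 6 and 21 UMIs against 4 in all other sums (5.30 ± 1.04, adjusted p = 0.00349, or 3.75 in Sham and 4.67 in TBI). Il7r, the survival receptor for interleukin 7, was higher than in CD4 and CD8 T cells by 1.77 and 1.97 and level with group 2 innate lymphoid cells (-0.09). The remaining members were Ifngr1, Il18r1, Ltb4r1 (a leukotriene B4 receptor), Il2ra and Il12rb1, and Il12rb1 was not called without the Ttr-rich cell.

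Of 8 cytokine genes tested among 19 listed, 0 were higher and 0 lower, which cannot be told apart from the 5.17% and 3.55% of all genes tested. Il17f, Il22, Il21, Ifng, Areg, Il5, Il13, Il10, Xcl1 and Ccl3 had 0 UMIs in the 199180 UMIs of the gamma-delta cells. Ltb, the lymphotoxin beta gene, had UMIs in 20 of 23 Sham and 28 of 32 TBI gamma-delta cells, with a difference of 0.19 ± 0.21 (adjusted p = 0.715). The interferon-induced genes had 22 of 30 tested, 0 higher and 2 lower (Ifi27l2a and Rnf213), and the median was -0.40. Of the 8 cytotoxic genes 7 were tested and 0 called, and they summed to 24 UMIs in Sham and 18 in TBI with Gzma, Gzmb, Gzmk and Klrg1 at 0.

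Genes of CD3 and receptor signalling were divided, with 20 of 21 tested, 5 higher and 5 lower, beside 5.17% and 3.55% of all genes tested. Without Cd28 and Cd8a, which had 0 UMIs in the gamma-delta cells, 5 of 18 were higher and 4 lower. The higher genes were Cd3d, Cd3e, Cd3g, Cd247 and Zap70, which form or read the receptor complex. Cd3e differed by 0.09 from CD4 T cells, by -0.05 from CD8 T cells and by 5.47 from group 2 innate lymphoid cells, which lack a surface receptor. Zap70, in contrast, differed by 1.11, 1.12 and 1.65. The lower genes were Lck, Cd28, Cd27, Skap1 and Ubash3a. Cd5, also used as a T cell marker, had a difference of 0.46 ± 0.43 (adjusted p = 0.644).

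Homing and residency genes had 15 of 20 tested, 5 higher and 3 lower, beside 5.17% and 3.55% of all genes tested. The median log2 difference of the 15 was -0.62. Cxcr6 was higher by 1.69 ± 0.22 (adjusted p = 5.49e-05), with UMIs in 20 of 23 Sham and 30 of 32 TBI gamma-delta cells. Ccr2, a chemokine receptor of inflamed tissue, was higher by 1.41 ± 0.25, Itgb7 by 0.94 and Cxcr3 by 2.41 (2.02 in Sham, 1.37 in TBI), and Itgae, which binds epithelial cadherin, had 6 and 12 UMIs against 0 in the other sums, at least 32.4-fold higher. Without Itgae, 4 homing genes were higher. Itgb1, Itga4 and Rgs1 were lower, and Itga4 had 11 UMIs in Sham and 0 in TBI. Of the other type 17-linked genes 16 of 17 were tested, 11 higher and 2 lower, but this list holds Cd163l1, Tmem176a, Serpinb1a and Aqp3 already described. Within it, Lgals3 (galectin 3) had 0 UMIs in gamma-delta cells against 86 in the others, at least 5.31-fold lower. Of the 14 type 17-linked genes tested without Cd163l1 and Lgals3, 10 were higher and 1 lower.

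Co-receptors had 14 of 20 tested, 3 higher and 3 lower, beside 5.17% and 3.55% of all genes tested. Pdcd1 was higher by 2.58 ± 0.36 (adjusted p = 0.000103), with UMIs in 10 of 23 Sham and 22 of 32 TBI gamma-delta cells. Klrb1b and Tnfrsf25 (DR3) were higher, and Tnfrsf18, Klrd1 and Tigit lower, of which Tigit was not called without the Ttr-rich cell. Of the 11 co-receptors with UMIs in both the gamma-delta and the other sums, 3 were higher and 1 lower. Ctla4, Lag3 and Havcr2 had 0 UMIs in the gamma-delta cells. Of the survival genes, Bcl2a1b was higher and the other 5 of 6 tested were not called.

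Cell cycle genes had 6 of 12 tested, of which 4 were lower (Hmgb2, Stmn1, Tubb5 and Tyms) and 0 higher, and Tyms was not called without the Ttr-rich cell. Without Tyms, which had 0 UMIs in the gamma-delta cells, 3 of 5 were lower. Over all genes tested, 5.17% were higher and 3.55% lower. With scaling by library totals 2 of the 6 were lower, and with DESeq2 1 (Hmgb2). Of the immediate early genes 11 of 20 were tested, of which Nfkbia, Junb and Hsp90aa1 were lower and Nr4a1 was higher, the last with most of its UMIs in the cell that held Il17a. Ribosomal protein genes, a group picked after its values were seen, were lower for 46 of 80 and higher for 0, with a median of -0.58, or for 32 of 80 and a median of -0.44 when scaled by library totals alone. That scaling moved the median of all genes from 0.02 to 0.15. The list of T cell genes that the study named as raised after injury was chosen on these samples and is not independent evidence. In it, 1 of 10 genes was higher (Cd247) and 1 lower (Gimap6).

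**Figure D4:**
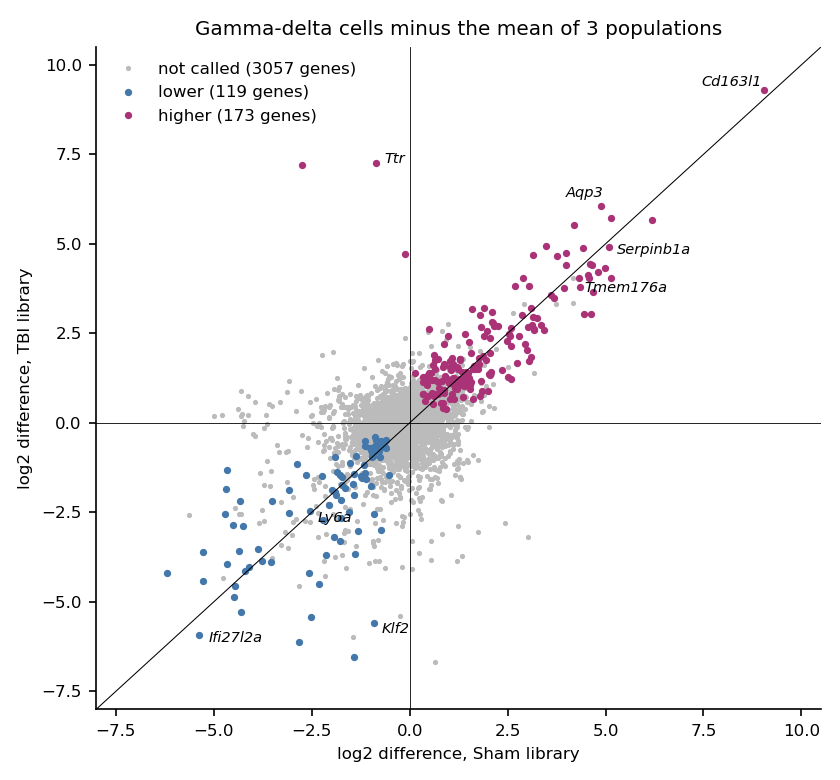
log2 difference of the gamma-delta cells from the mean of CD4 T, CD8 T and group 2 innate lymphoid cells in the Sham library (horizontal) and the TBI library (vertical) for 3349 genes, with the 173 higher and 119 lower genes coloured. Cd163l1 and Serpinb1a lie near the line of equal difference, Aqp3 lies above it (4.88 in Sham, 6.06 in TBI), and Ttr lies high in the TBI library alone.

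Markers of other cell types were summed in the gamma-delta cells. Among them, Ncr1, Il1rl1, Cd8b1 and C1qa were exclusion genes. They were at 0 by the rule, which says nothing further about the cells. Choroid plexus and epithelial genes, picked after their values were seen, summed to 4 UMIs in Sham and 2777 in TBI, of which the Ttr-rich cell held 2460 of Ttr and 273 of Enpp2. The 8 NK markers summed to 0 UMIs in Sham and 1 in TBI, the 8 group 2 innate lymphoid markers to 4 and 10 (mostly Gata3), and the 8 macrophage markers to 5 and 25, of which Apoe was the most abundant and C1qa, C1qb, C1qc, Csf1r and Ms4a7 were at 0. Fibroblast markers summed to 2 and 19 UMIs, endothelial markers to 3 and 5, dendritic cell markers to 0 and 1, and neutrophil and mast cell markers to 3 and 9. B cell markers summed to 44 and 32 UMIs, led by Cd74, with Ighd, Ebf1 and Pax5 at 0. CD8 T cell markers summed to 5 and 9 UMIs, all of them Trac. Red cell genes, at 81 and 29 UMIs (1047 and 238 CPM), and B cell markers (569 and 263 CPM) were higher in Sham, and their part in the values between the libraries was not tested.

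Between the libraries, most genes of the gamma-delta cells differed by less than 2-fold. Of 1596 genes with at least 20 UMIs, 80 were at least 2-fold higher in TBI (5.01%) and 81 at least 2-fold lower (5.08%), and the median log2 ratio was -0.04. With all 63 cells, 117 of 2102 genes were 2-fold higher (5.57%) and 93 lower (4.42%), and the leading higher genes were Wfdc18 (233 UMIs), Sbsn (91) and Gpx3 (61), with 100%, 100% and 96.7% of their TBI UMIs in 1 cell. Of the 8 leading higher genes in the gamma-delta cells, 7 (Ttr, Enpp2, Mt3, Ptgds, Ecrg4, Chchd10 and Clu) had most of their TBI UMIs in the Ttr-rich cell. Ttr had 3 UMIs in Sham and 2480 in TBI, of which 2460 were in that cell. Without this cell 48 of 1460 genes were higher and 55 lower. The last of the 8 was Il17a, with 28 of its 29 UMIs in 1 other cell.

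More UMIs of the receptor complex were counted per TBI gamma-delta cell. Cd3d, Cd3e and Cd3g together had a median of 8 UMIs per cell in Sham (lowest 0, highest 33) and of 20.5 in TBI (lowest 2, highest 46), and the ranges overlapped. Summed, they gave 3243 and 5058 CPM, a log2 ratio of 0.64 with a counting interval of 0.43 to 0.86. The cells lay in different clusters in the 2 libraries, with 7 of 23 Sham and 3 of 32 TBI gamma-delta cells in the Rnf128 and Gata3 cluster, and the 6 cells without CD3 UMIs were all from Sham. Among the 17 Sham and 32 TBI cells with a CD3 UMI the log2 ratio was 0.30 (0.09 to 0.52), but the compared UMIs chose this subset. Among the 17 and 25 cells with Tcrg-V6 or Trdv4 the ratio was 0.34 (0.11 to 0.57). Among the 16 and 28 cells of the CD3 cluster, which the compared genes lead, the ratio was 0.56 (0.34 to 0.78). Gamma and delta receptor genes, whose UMIs chose the cells, gave 5233 and 8063 CPM, which is a description only. Cd3e had UMIs in 16 of 23 Sham and 32 of 32 TBI cells, and in 52.6% and 78.6% of the 19 and 28 cells deep enough to be thinned to 1000 UMIs each. Tcrg-C4, likewise among the genes that chose the cells, had 4 and 31 UMIs and Trgv2 10 and 38. Animal and pooling differences cannot be told apart from injury here.

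Among genes with at least 20 UMIs, the counting interval of the TBI over Sham ratio lay above 0 for 6.33% and below 0 for 5.39%. Of 7 type 17 transcription factors 0 lay above and 1 below, with 2 of the 7 ratios positive and a median of -0.44. Of 11 cytokine and neuropeptide receptors 0 lay above and 3 below, with 2 ratios positive and a median of -0.38, and of 13 other type 17-linked genes 0 lay above and 0 below. The interval included 0 for Sox13 (0.45, from -0.65 to 1.73), Cd163l1 (0.14, from -0.15 to 0.44), Cxcr6 (-0.22), Ramp1 (0.44), Pdcd1 (0.26) and S100a6 (-0.11). For Maf the values were 620 CPM (Sham) and 386 CPM (TBI), a log2 ratio of -0.68 (-1.30 to -0.07). Il18r1 gave 594 and 361 CPM, a ratio of -0.72 (-1.35 to -0.09), and for Il7r 1215 and 887, a ratio of -0.45 (-0.87 to -0.04). In the cells with Tcrg-V6 or Trdv4, Il7r stood at 885 CPM in 17 Sham cells and 810 in 25 TBI cells, and Il18r1 at 424 and 344. The 6 Sham cells with neither segment held 46 of the 94 Il7r UMIs and 23 of the 46 Il18r1 UMIs. In these cells and the 7 such TBI cells Il7r stood at 1985 and 1214 CPM and Il18r1 at 992 and 434. Tgfbr2, a receptor chain for transforming growth factor beta, had 19 and 10 UMIs, a ratio of -1.55 (-2.85 to -0.40).

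The leading lower gene in TBI was Ccl5, a chemokine, with 75 UMIs in Sham and 0 in TBI. However, 74 of the 75 lay in 1 Sham cell, which also held all 5 Nkg7, all 17 Ly6c2 and all 10 Klf2 UMIs of the Sham gamma-delta cells, 25 of their 32 Ms4a4b UMIs, 4 Trac and 2 Cd4 UMIs, and neither Tcrg-V6 nor Trdv4. Lower genes that were spread over more cells were AW112010 (42 and 17 UMIs in 10 and 8 cells, log2 ratio with interval -2.86 to -1.12), Sipa1 (17 and 7 UMIs in 11 and 7 cells), Huwe1 and Ubald2. Klrb1b had 21 and 8 UMIs in 6 and 4 cells. The hemoglobin genes Hbb-bs (30 and 10 UMIs), Hba-a1 (26 and 7) and Hba-a2 (22 and 9) were likewise lower in TBI by count.

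**Figure D5:**
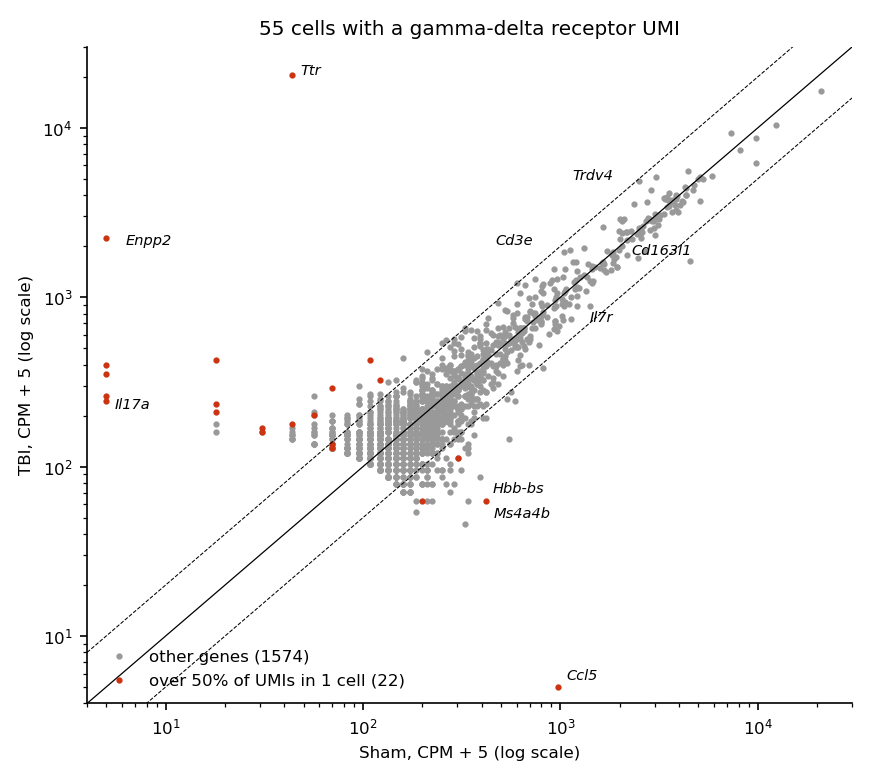
Summed CPM plus 5 in TBI (vertical) against Sham (horizontal) gamma-delta cells for 1596 genes, both axes logarithmic, with dashed lines at a 2-fold difference; red points are the 22 genes with over 50% of their UMIs in 1 cell. Ttr, Enpp2, Il17a and Ccl5 are among the red points, while most genes lie between the dashed lines.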

How the data were processed

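The values are UMI counts per gene and cell, deposited as 1 filtered 10x matrix per library. Cell Ranger was used by the authors to align reads to mm10 and count UMIs. Its version is uncertain, since the submitters' processing notes give 2.1.1, the matrix header 3.1.0 and the study's methods yet another. Cell populations were rebuilt here from marker genes. Cells were kept with 150 to 5000 genes, at most 20% mitochondrial and at most 5% hemoglobin UMIs. The cells of the rule and all gene lists were chosen with earlier results of these data known. CD4 T cells carried Cd4 and CD8 T cells Cd8b1, each with an alpha-beta constant gene, and group 2 innate lymphoid cells carried Il1rl1 and Gata3. Counts were summed per library and population and tested in edgeR 4.0.16 (R 4.3.3) with TMM, its default filter on low counts, a library block and Benjamini-Hochberg adjustment. DESeq2 1.42.0 was an alternative. The 20 genes that chose a population were not tested, nor were the gamma and delta receptor genes in the gamma-delta cells. Genes named were the 15 with the smallest p in each direction, the 8 with the largest ratios in each direction and members of the lists, of which some are not reported here. Ratios between libraries used a pseudocount of 0.5 and exact 95% binomial intervals, which cover counting error only. Clusters came from 2000 variable genes, 20 principal components and Leiden resolution 0.8 in scanpy 1.11.5. Predicted doublets, ranked by score at a rate of 0.8% per 1000 cells, numbered 33 in Sham and 114 in TBI, held 1 type 17 lymphocyte and were removed only as an alternative. The gamma-delta fit was tested on simulated counts. These had 1 dispersion for all genes, the same profile in every population apart from the changed genes, and no library effect. The real sums differ in these settings, so the rates may not carry over to them. There the gamma-delta fit recovered 48 of 50 genes with a log2 difference of 2 and 22 of 41 with -2. Of 2853 genes with no difference it called 5.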

Additional observations from a re-analysis of the deposited data

How the results depend on the processing

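With 1 pooled library of 5 mice per condition, neither animals nor libraries could be compared within a condition. No paired analysis was possible because each group had 1 library and no pairs exist. The difference in share kept its sign under all 13 alternatives, from -0.754 points among cells with a Ptprc UMI to -0.0348 points without fibroblast UMIs. Every interval spanned both signs, and the alternatives drew on the same libraries, so they are not independent. The fit over all 63 cells called 290 genes higher and 213 lower. Higher calls numbered 112 with DESeq2, 480 with no filter other than 1 UMI, 186 with at least 3 of the 8 genes, 173 in gamma-delta cells, and, chosen after seeing the data, 181 without the 7 cells lacking lymphocyte UMIs and 178 in gamma-delta cells without the Ttr-rich cell. Lower calls numbered 119 with DESeq2 and 119, 129 and 118 in the last 3 sets. In gamma-delta cells DESeq2 called 81 higher, and of the 30 genes named from that fit 29 kept their call, the exception being Cd163l1. In each library alone, with no test, the 30 had the same sign, which their choice by p in these same libraries favoured. For 14 the difference moved by over 1.5-fold from the fitted one, which includes the change of measure. In subsets of gamma-delta cells chosen after seeing the data, the CD3 log2 ratio of 0.64 was 0.34 with Tcrg-V6 or Trdv4 and 0.56 in the CD3 cluster. In cells with a CD3 UMI, which the compared UMIs chose, the ratio was 0.30. The 117 genes 2-fold higher in TBI became 68 with at least 3 of the 8 genes, 48 in gamma-delta cells without the Ttr-rich cell, 366 at a minimum of 10 UMIs, 16 at 50 and 189 from means over cells. The 93 lower genes became 55 in gamma-delta cells without the Ttr-rich cell, 387 at a minimum of 10 UMIs and 14 at 50. The log2 ratio of Ms4a4b turned to 0.80 with at least 3 of the 8 genes. That of Sostdc1 turned to 3.86 there, to 3.99 in gamma-delta cells and to 4.03 without the 7 cells. These changes follow from removing the cells that held the UMIs.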
